A study of Mus musculus with 8 samples.

Results

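Chromosome 19 carried 1490 probes under 1039 gene names on the arrays, and 661 of these names had a probe well above background on all 8 arrays. These 661 genes, each represented by its brightest such probe, are described here, out of 21201 genes measured by the same rule on all chromosomes. Of the 378 names left out, 33 had a best probe above background on 7 arrays, 154 on 1 to 6 arrays and 191 on none. The names were 514 gene symbols, 64 intervals of long noncoding transcripts and 83 other transcripts or probes. The genes were chosen by position and by a signal above background, and the chromosome itself was chosen by the shift of its genes between cultures in these same data, so the size of that difference is a description and is given without a test.

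The cells were mouse embryonic stem cells, pluripotent cells that can be kept in culture or made to differentiate. They were either wild type or heterozygous for Nkx25 R141C, a missense allele of the homeobox factor Nkx2-5, which acts in the forming heart. Cultures were taken undifferentiated at day 0, or at day 6 after growth as embryoid bodies toward cardiac progenitors, with 2 biological replicates in each of the 4 groups of wild type day 0, R141C day 0, wild type day 6 and R141C day 6. The labels name neither the parental line nor the number of R141C clones, so the mutation and the line or clone that carries it cannot be told apart.

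Genes on 1 chromosome are not grouped by function, but they are copied and lost together with their chromosome. Mouse embryonic stem cell lines are known to gain or lose whole chromosomes or chromosome segments during culture, and the RNA of many genes follows the number of gene copies. Only RNA was measured on these arrays, and the DNA of the cultures was not analysed here.

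The log2 signals are relative to the 75th percentile of each array, which was set to 0. Between 31024 and 39232 probes (55.7% to 70.5%) exceeded background on an array. The 75th percentile lay between 939 and 1851 units of processed signal and was lowest on R141C day 6 replicate 1. Across genes, the signals of that array correlated at 0.979 with both wild-type arrays of day 6, where R141C day 6 replicate 2 reached 0.990 and 0.992. Among the day 0 arrays, wild type replicate 2 correlated least with the others, at 0.975 to 0.984. The summed signal of 10 pluripotency markers was 386 to 609 times the 75th percentile at day 0 and 74.6 to 133 times at day 6. The sum of 10 heart muscle markers at day 6 was 365 and 466 in wild type, 151 in R141C replicate 2 and 11.5 in R141C replicate 1, in which Ttn was not well above background. The probe for Nkx2-5, a gene on chromosome 17, reads the transcript of both alleles and cannot show the mutation.

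The promoters of 3 of the genes are shown as examples. Ddb1 and Cox8a are bright genes that followed the chromosome on both R141C replicate 1 arrays, and Dkk1 had the largest rise between the days in wild type. Each sequence is RefSeq's on GRCm38.p6, read 5′ to 3′ on the strand of the gene, from 250 bases before the transcription start, 300 bases in all. They lie at chr19:10605347-10605646 (plus strand), chr19:7217567-7217866 (minus strand) and chr19:30549447-30549746 (minus strand). Capitals mark a match on either strand to the TATA box TATAAA, to the CCAAT box, to the GC box GGGCGG or to the E-box CACGTG.
Ddb1: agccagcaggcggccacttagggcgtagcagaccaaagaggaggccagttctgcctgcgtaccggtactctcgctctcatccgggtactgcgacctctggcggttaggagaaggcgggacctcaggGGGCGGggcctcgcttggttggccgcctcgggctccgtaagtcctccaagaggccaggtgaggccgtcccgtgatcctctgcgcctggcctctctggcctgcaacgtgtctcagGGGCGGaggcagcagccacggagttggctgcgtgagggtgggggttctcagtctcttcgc
Cox8a: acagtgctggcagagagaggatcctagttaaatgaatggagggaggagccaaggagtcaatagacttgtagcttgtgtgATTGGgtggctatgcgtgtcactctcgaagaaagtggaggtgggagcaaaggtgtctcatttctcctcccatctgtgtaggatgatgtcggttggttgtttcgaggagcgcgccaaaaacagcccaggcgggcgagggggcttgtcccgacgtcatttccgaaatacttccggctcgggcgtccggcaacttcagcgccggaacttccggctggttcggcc
Dkk1: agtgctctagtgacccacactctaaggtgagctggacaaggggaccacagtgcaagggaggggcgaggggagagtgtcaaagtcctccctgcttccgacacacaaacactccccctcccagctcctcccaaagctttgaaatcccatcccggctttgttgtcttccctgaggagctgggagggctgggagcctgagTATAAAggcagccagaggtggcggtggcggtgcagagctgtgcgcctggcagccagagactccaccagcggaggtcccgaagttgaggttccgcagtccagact
The Ddb1 promoter held GGGCGG at 2 places and 22 CpG dinucleotides. Cox8a held CCAAT once, on the reverse strand, and 19 CpG dinucleotides. Dkk1 held TATAAA once and 9 CpG dinucleotides. No base belonged to more than 1 motif. Of the 661 genes, 428 were matched to a promoter. GGGCGG was present in 59.3% of these 428, against 60.9% of 11858 promoters of all measured genes and 35.9% of all 27025 promoters in the table. The shares for CCAAT were 40.9%, 38.8% and 37.9%, those for TATAAA 8.88%, 8.15% and 14.2%, and those for CACGTG 7.71%, 9.91% and 7.24%, in the same order. The median promoter of the 428 had 60.3% G and C and 20 CpG dinucleotides, the same as over all measured genes. The measured genes of chromosome 19 thus had promoters of the same base composition as measured genes elsewhere.

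The chromosome as a whole was brighter on 2 of the 8 arrays, both of them R141C replicate 1, 1 at day 0 and 1 at day 6. For each gene, its shift on an array is the log2 signal there minus the mean of the other 3 arrays of the same day, relative to the median of the 19457 measured genes on the other 18 autosomes. The median shift of the 661 genes was 0.31 on R141C day 0 replicate 1 and 0.36 on R141C day 6 replicate 1, that is 1.24-fold and 1.28-fold. On the other 6 arrays it lay between -0.13 and -0.08. These 6 values are measured against a mean that contains the bright array. With R141C day 0 replicate 1 left out, the day 0 values were 0.02 and 0.01 in wild type and -0.0050 in R141C replicate 2. With R141C day 6 replicate 1 left out, the day 6 values were 0.02 and -0.01 in wild type and -0.0076 in R141C replicate 2. The 6 other arrays thus differed little from each other in the level of this chromosome.

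**Figure D1:**
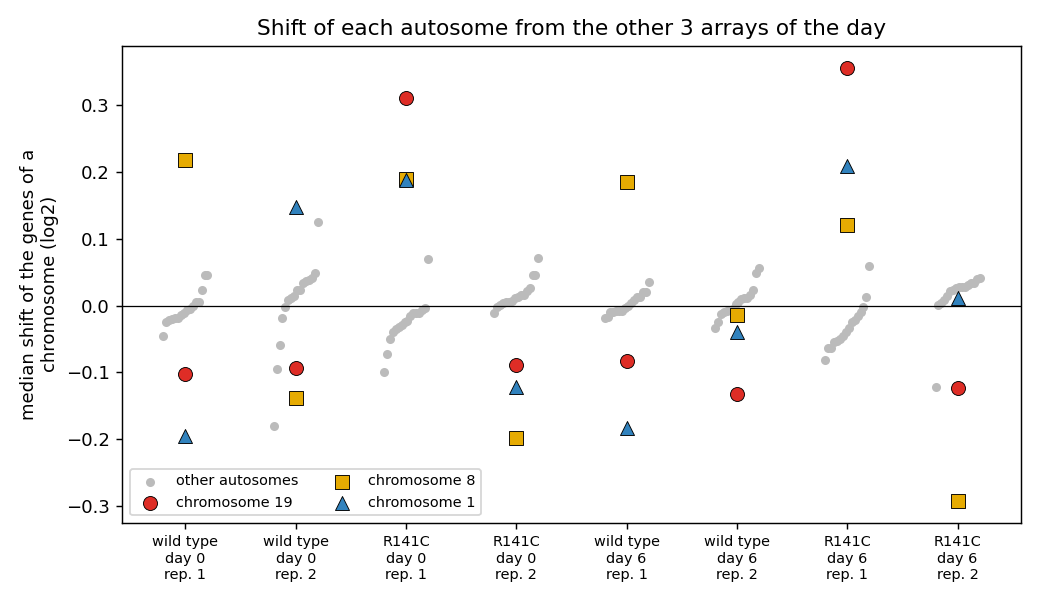
Median shift of the genes of each of the 19 autosomes (vertical axis, log2) on each of the 8 arrays (horizontal axis). Circles mark chromosome 19, squares chromosome 8, triangles chromosome 1 and grey points the other autosomes. Chromosome 19 is the highest on both R141C replicate 1 arrays, at 0.31 and 0.36.

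Among the 19 autosomes, chromosome 19 had the highest shift on both of these arrays, and ranked between 16 and 19 on each of the other 6. The low ranks on those 6 follow largely from a mean that contains the bright array, as given above. On R141C day 0 replicate 1 the other autosomes lay between -0.10 (chromosome 9) and 0.19 (chromosome 8). On R141C day 6 replicate 1 they lay between -0.08 (chromosome 9) and 0.21 (chromosome 1). The pattern of chromosome 8 differed, since it was also high on both wild-type replicate 1 arrays, at 0.22 on day 0 and 0.19 on day 6. Chromosome 1 was high on wild type day 0 replicate 2 as well, at 0.15. Taken directly as replicate 1 minus replicate 2, the median for chromosome 19 was 0.28 in R141C at day 0 and 0.34 at day 6, where wild type gave 0.0022 and 0.02. For chromosome 8 it was 0.28 and 0.29 in R141C, as large at day 0 as for chromosome 19, with 0.25 and 0.15 in wild type. For chromosome 1 it was 0.22 and 0.14 in R141C, with -0.25 and -0.10 in wild type.

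The shift was spread over most of the genes. On R141C day 0 replicate 1, 556 of the 661 genes (84.1%) were above 0, and on R141C day 6 replicate 1, 520 (78.7%). The genes of the other autosomes divide evenly about 0 by construction. On the other 6 arrays, 27.4% to 39.5% of the chromosome 19 genes were above 0, again against a mean that contains the bright array. The quartiles of the shifts were 0.11 and 0.54 on R141C day 0 replicate 1, where the genes of the other autosomes had -0.20 and 0.19. At day 6 they were 0.06 and 0.61, against -0.32 and 0.31. A shift above 0.5 was seen in 186 genes (28.1%, against 4.77% elsewhere) at day 0 and in 225 genes (34.0%, against 13.7%) at day 6. R141C replicate 1 gave the brightest of the 4 arrays of its day for 451 genes (68.2%) at day 0 and 517 (78.2%) at day 6. The same held for 33.7% and 48.1% of the genes on the other autosomes.

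The same genes tended to be above 0 at both days. On both R141C replicate 1 arrays 466 genes (70.5%) were above 0 and 51 (7.72%) were below it. On the other autosomes, 32.4% of genes were above 0 on both, on chromosome 8 50.9% and on chromosome 1 56.7%. Across the 661 genes, the shift at day 0 correlated with that at day 6 at r = 0.37, and across genes of the other autosomes at 0.36. Genes are not independent replicates, and the values share the arrays of each day. The correlation was thus about the same as elsewhere, while the overall level of the chromosome differed.

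**Figure D2:**
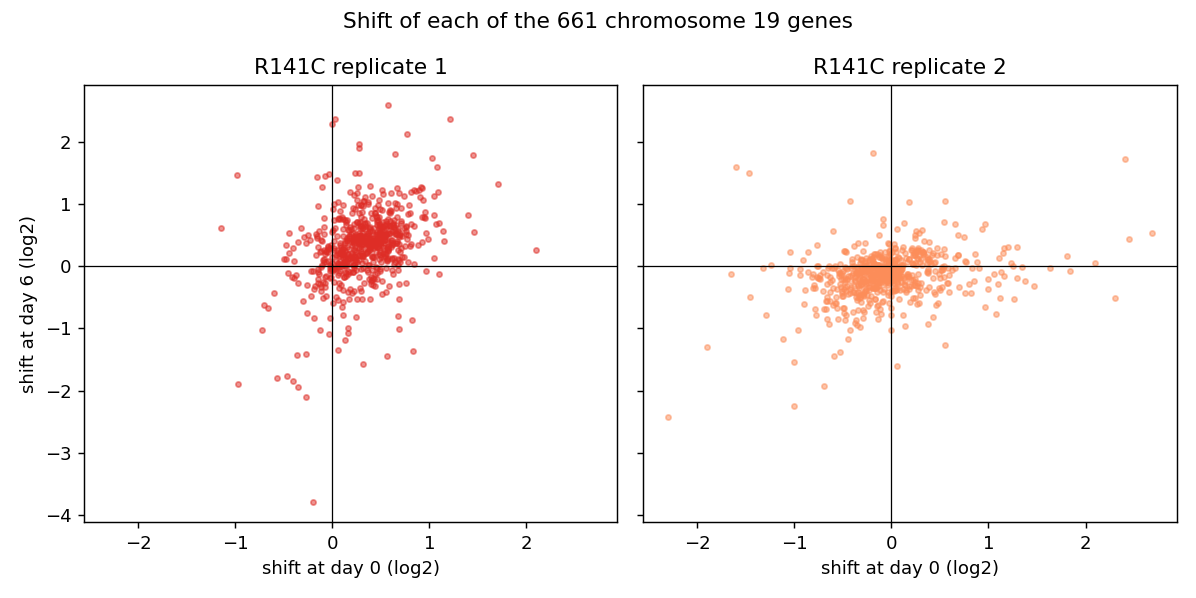
Shift of each of the 661 chromosome 19 genes at day 0 (horizontal axis, log2) and day 6 (vertical axis, log2) on the R141C replicate 1 arrays (left) and the R141C replicate 2 arrays (right). On the left, 466 of the points lie above 0 on both axes.

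The shift was seen along the chromosome, though not evenly. In 13 bins of 5 Mb of probe position on mm9, each with at least 21 genes, the median shift was above 0 in all 13 on both R141C replicate 1 arrays. It was lowest between 60 and 65 Mb, at 0.12 on day 0 and 0.15 on day 6, and highest between 45 and 50 Mb, at 0.42 and 0.51. Of 470 bins made alike on the other autosomes, 40.4% were above 0 on the day 0 array and 43.4% on the day 6 array. Their 95th percentile was 0.23 on each, and 11 of the 13 chromosome 19 bins were above it at day 0 and 11 at day 6. On the other 6 arrays, where the mean contains the bright array, between 0 and 5 of the 13 bins were above 0. Bins of 10 Mb (7 bins) and of 25 consecutive genes (27 bins) were also all above 0 on both R141C replicate 1 arrays.

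**Figure D3:**
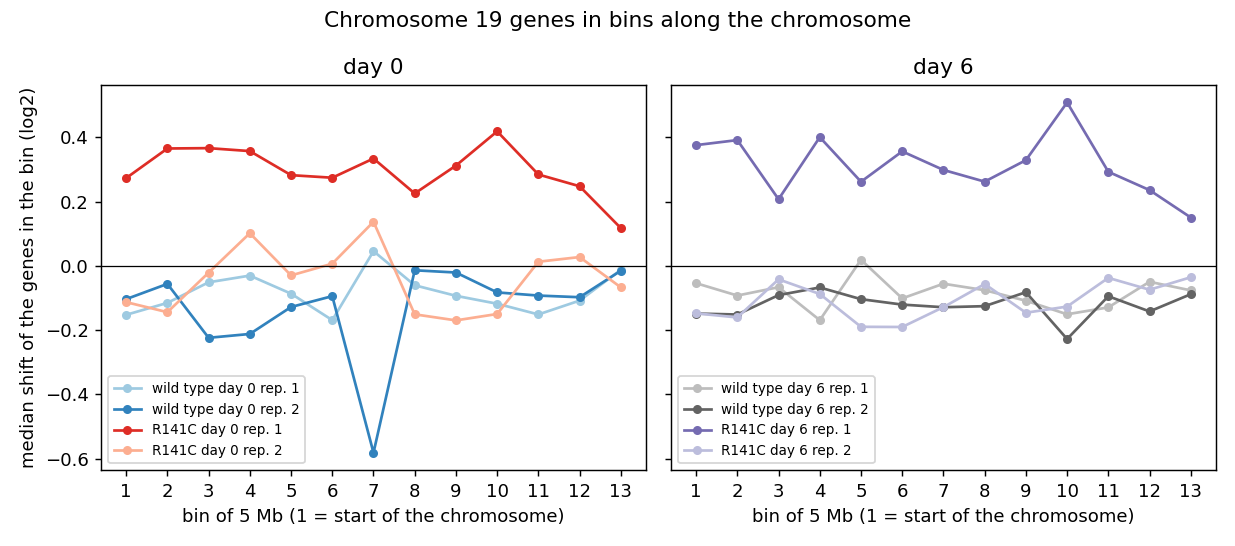
Median shift (vertical axis, log2) of the chromosome 19 genes in each of 13 bins of 5 Mb, numbered from the start of the chromosome (horizontal axis), at day 0 (left) and day 6 (right), with 1 line per array. Both R141C replicate 1 lines stay above 0 in all 13 bins, and wild type day 0 replicate 2 drops to -0.58 in bin 7.

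The bin with the lowest shift, between 60 and 65 Mb, held 21 genes, of which 11 (52.4%) were gene symbols. The symbols among them had a median of 0.22 at day 0 and 0.24 at day 6. Between 50 and 55 Mb, 18 of the 22 genes were above 0 at day 0 and 13 at day 6. The 13 gene symbols there had a median of 0.36 at day 0 and of -0.01 at day 6, so the day 6 shift of this bin, 0.29 over all 22 names, was not seen in its gene symbols. Between 45 and 50 Mb, 56 of 62 genes were above 0 at day 0 and 56 at day 6. The 5 brightest genes there included Atp5md, a small subunit of the mitochondrial ATP synthase, with shifts of 0.32 at day 0 and 0.36 at day 6. Sfr1, a factor of homologous recombination, had 0.61 and 0.39, and Mrpl43, a protein of the mitochondrial ribosome, 0.42 and 0.30. The predicted gene Gm20764 had 0.24 and 0.49, and the transcript NAP060728-1 had 0.22 and 0.43.

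A deviation of another kind was seen on wild type day 0 replicate 2, where the 28 genes between 30 and 35 Mb had a median shift of -0.58. There the genes were uneven. Chosen after their values were seen, Acta2, smooth muscle actin, was at -2.19, Ch25h, cholesterol 25-hydroxylase, at -2.11, Fas, the death receptor, at -1.78 and Lipa, lysosomal acid lipase, at -1.16. In the same bin Pank1, a pantothenate kinase, was at 0.28. Acta2 and Ch25h were high on R141C day 0 replicate 2, at 2.69 and 2.31. On that array the summed signal of 8 fibroblast markers was 163, and on wild type day 0 replicate 2 it was 61.8, with 55.4 and 83.5 on the other day 0 arrays. The part of fibroblast-like cells in these values was not tested.

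Genes for DNA replication, repair and mitosis stood above 0 without exception on both R141C replicate 1 arrays. The lists of genes by role were drawn up with earlier results of these data known, and no list is called particular from its count. On these arrays the 176 genes on a list had median shifts of 0.45 at day 0 and 0.41 at day 6. The 485 genes on no list had 0.28 and 0.31, so the listed genes lay above the typical gene of the chromosome. All 23 measured genes of the replication list were above 0 at both days, with a median shift of 0.50 at day 0 and 0.52 at day 6. Ddb1, a damage-binding adaptor of a ubiquitin ligase (chromosome 19, 10704247 to 10704306 on mm9), had log2 signals of 6.98 and 6.83 in wild type day 0, 7.51 and 7.13 in R141C day 0, 7.07 and 7.18 in wild type day 6, and 7.81 and 7.37 in R141C day 6, replicate 1 first. Replicate 1 of R141C was the brightest array of each day, and replicate 2 was also above both wild-type arrays.

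Incenp, the scaffold of the chromosomal passenger complex (9946893 to 9946952), gave 5.96 and 5.93 in wild type and 6.66 and 5.72 in R141C at day 0, then 5.61 and 5.66 in wild type and 6.42 and 5.67 in R141C at day 6. Here R141C replicate 1 stood alone, and the other 3 arrays of each day lay close together. Fen1, the flap endonuclease that trims Okazaki fragments (10273675 to 10273734), gave 5.46 and 5.07, then 6.08 and 5.11 in R141C at day 0, with 5.14 and 5.31, then 5.84 and 5.32 in R141C at day 6. Again R141C replicate 1 was above the other 3 arrays at each day. The shifts of Sfr1 from the same list are given above.

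All 33 measured genes for transcription and RNA processing were above 0 on both arrays, with medians of 0.50 at day 0 and 0.43 at day 6. Nxf1, the main export receptor for messenger RNA (8845319 to 8845378), gave 5.86 and 5.69 in wild type and 6.29 and 5.47 in R141C at day 0. At day 6 it gave 5.33 and 5.39 in wild type and 6.08 and 5.27 in R141C. R141C replicate 2 was the dimmest of the 4 arrays at each day and replicate 1 the brightest. Polr2g, a subunit of RNA polymerase II, had shifts of 0.48 and 0.43, Drap1, a corepressor that binds TATA-bound factors, 0.53 and 0.30, and Eif1ad 0.60 and 0.53.

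Of 24 measured genes for mitochondria and energy metabolism, 24 were above 0 at day 0 and 22 at day 6, with medians of 0.49 and 0.42. Cox8a, a subunit of cytochrome c oxidase (7289652 to 7289708), had 7.09 and 7.28 in wild type and 7.72 and 7.09 in R141C at day 0, and 7.0 and 7.24 in wild type and 7.81 and 7.38 in R141C at day 6. Both replicate 1 arrays of R141C exceeded every wild-type array. The complex I subunits Ndufb8 and Ndufv1 had shifts of 0.54 and 0.50 at day 0 and of 0.42 and 0.69 at day 6. Pgam1, the glycolytic phosphoglycerate mutase, had 0.31 and 0.36.

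The 20 genes for translation, protein turnover and membrane traffic had medians of 0.39 at day 0, with 20 above 0, and 0.46 at day 6, with 17 above 0. Eef1g, a subunit of the elongation factor complex (9052620 to 9052679), gave 7.68 and 7.54 in wild type and 8.24 and 7.72 in R141C at day 0, then 7.77 and 7.81, and 8.53 and 7.97 at day 6. Fau, a ubiquitin-like fusion to a ribosomal protein, had shifts of 0.48 and 0.47, Fth1, the heavy chain of ferritin, 0.46 and 0.67, and Cfl1, the actin-severing protein cofilin, 0.38 and 0.39.

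The list of named noncoding RNAs held only 3 genes, with median shifts of 0.81 and 1.21. The 64 intervals of long noncoding transcripts had lower medians, 0.14 and 0.26, than the gene symbols, at 0.37 and 0.38. Malat1, an abundant nuclear RNA (5795713 to 5795772), gave 1.27 and 1.14 in wild type and 2.04 and 0.91 in R141C at day 0, then 1.51 and 0.94 in wild type and 2.40 and 0.86 in R141C at day 6. Snhg1, a host gene of small nucleolar RNAs, had shifts of 0.81 and 0.85, and Neat1, the RNA scaffold of paraspeckles, 0.26 and 1.27. In each case R141C replicate 2 was the dimmest of its day.

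Signalling genes were less uniform. Of 35 measured, 29 were above 0 at day 0 and 24 at day 6, with medians of 0.43 and 0.33, and 21 were above 0 at both. Ppp1ca, a catalytic subunit of protein phosphatase 1, had shifts of 0.46 and 0.46, Ehd1, of endocytic recycling, 0.50 and 0.33, and Rela, a subunit of NF-kappaB, 0.55 and 0.21. Of 22 measured genes for lipid and amino acid metabolism, 17 and 16 were above 0, with medians of 0.18 and 0.12. Psat1, an enzyme of serine synthesis, had 0.70 and 0.50, while Scd2, a stearoyl-CoA desaturase (44381024 to 44381083), had 0.08 and -0.07. Gldc, the glycine decarboxylase, had 0.69 and 0.10, and Gsto1, a glutathione transferase, 0.08 and 0.37. No difference between the lists was tested.

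**Figure D4:**
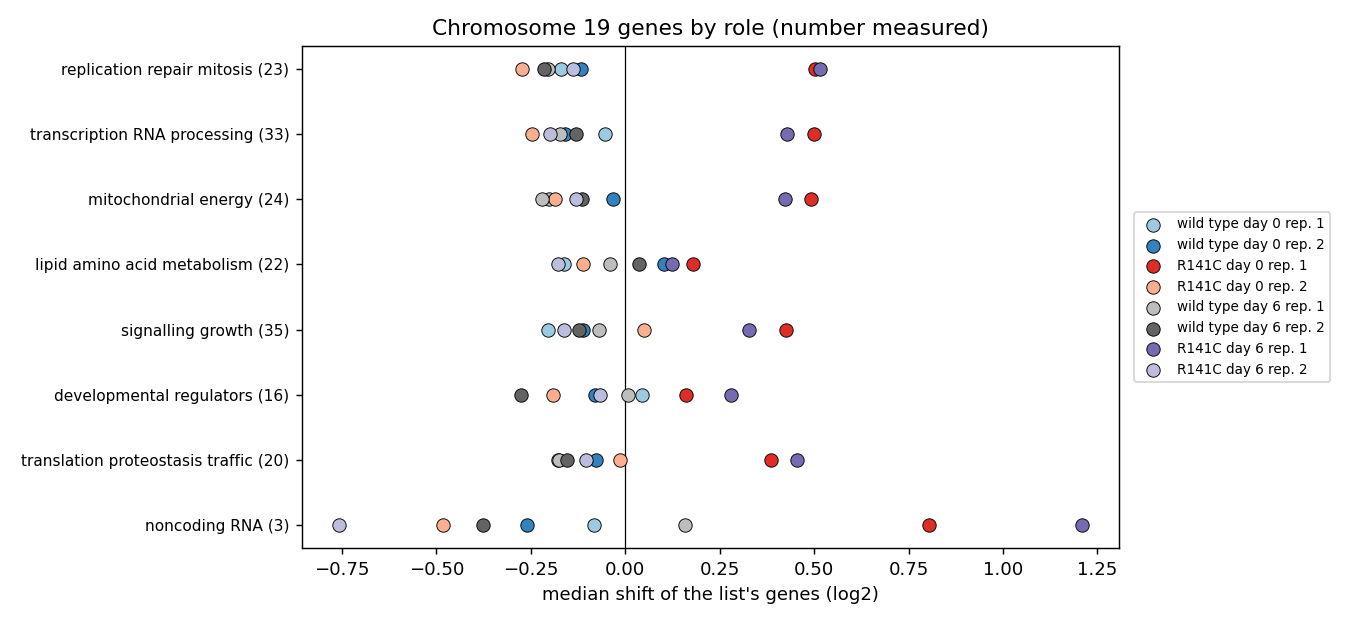
Median shift (horizontal axis, log2) of the chromosome 19 genes in each of 8 lists by role (vertical axis, number measured in parentheses), with 1 point per array. The medians of R141C replicate 1 are above 0 in all 8 lists at both days, from 0.16 to 0.81 at day 0 and from 0.12 to 1.21 at day 6.

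Developmental regulators were measured least completely, with 16 of the 27 genes on the chromosome above background on all arrays. Their medians on the R141C replicate 1 arrays were 0.16 and 0.28, and 11 of 16 were above 0 at both days. Over all 8 lists, the medians of R141C day 6 replicate 2 were below 0 in 8, and those of the wild-type arrays were above 0 in 1 or 2. These medians too are measured against a mean that contains R141C replicate 1.

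The shift depended little on where probes lay on the array and more on how bright the genes were. In the 4 quadrants of the array the medians were 0.27 to 0.36 at day 0 and 0.31 to 0.38 at day 6. Genes read from the plus and minus strands had 0.30 and 0.32 at day 0 and 0.38 and 0.33 at day 6. The 220 dimmest genes had 0.20 and 0.26, the middle 220 had 0.30 and 0.36, and the 221 brightest 0.39 and 0.38. Gene symbols had 0.37 and 0.38, intervals 0.14 and 0.26, and other names 0.20 and 0.24. The 202 further detected probes of 148 gene names had 0.35 and 0.47, with 90.1% and 81.2% above 0. They read the same RNA on the same arrays and passed the same filter, so they are not independent of the choice of the chromosome.

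Several measures moved with these arrays. Both R141C replicate 1 arrays lay in row 3 of the 4 rows of the slide, so slide position and culture cannot be told apart. At day 0 the summed signals of 6 of 8 cell-type marker lists on R141C replicate 1 lay within the range of the other 3 arrays, and those of endoderm (26.9, against 36.9 to 40.8) and fibroblasts (55.4, against 61.8 to 163) lay below it. A sum gives most weight to the brightest genes of a list. By mean log2 signal endoderm was within the range, at -3.85 against -4.13 to -3.51. So were fibroblasts, at -0.18 against -0.56 to 1.20. At day 6 only 1 of the 8 lists, that of blood, lay within the range, with heart muscle at 11.5 against 151 to 466. Endoderm was at 122 against 130 to 184, and endothelium at 14.4 against 7.61 to 9.06. By mean log2 signal endothelium was instead below the range, at -0.63 against -0.54 to -0.23, while the other lists outside the range kept their direction. Neuroectoderm was at 7.36 against 9.26 to 20.7, and the primitive streak at 70.8 against 33.9 to 52.6. Fibroblasts were at 111 against 114 to 158, and pluripotency at 133 against 74.6 to 112. The log2 signal of Nkx2-5 on R141C day 0 replicate 1 was 1.84, against -2.02 to -0.77 on the other day 0 arrays. The part of cell makeup in the shift was not tested. Among the 507 genes with no call between the days in either genotype, the shift was 0.35 at day 0 and 0.40 at day 6, and among the 154 genes called it was 0.21 and 0.13. These values are relative to all measured genes of the other autosomes. Relative only to genes of the other autosomes that were likewise not called, the 507 genes had 0.32 and 0.37. The calls come from a fit to these same arrays, whose spread contains the difference between the R141C replicates. A large shift on R141C replicate 1 thus makes a call less likely, so the split into called and uncalled genes is not independent of the shift.

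Between the genotypes, compared at each day, no chromosome 19 gene passed the test. In limma with Benjamini-Hochberg adjustment over all 21201 genes, 0 of the 661 were called at day 0 at an adjusted p under 0.05, against 0.00472% of all genes, and 0 at day 6, against 0%. The chromosome was chosen by the shift of its genes between cultures, and the R141C replicate 1 arrays that carry this shift are in the R141C groups. The shares that follow draw on those values, so they are descriptions and no test of the genotype. At an unadjusted p under 0.05 there were 56 of the 661 at day 0 (8.47%, against 4.71% of all genes), 52 of them higher in R141C (against 2.71% of all genes higher). At day 6 there were 51 (7.72%, against 7.55%), 37 of them higher (against 4.44%). The median log2 difference was 0.16 at day 0, where all genes had 0.01, and 0.22 at day 6, where all genes had 0.06. It was above 0 for 486 genes (73.5%, against 51.4% on the other autosomes) and 519 genes (78.5%, against 57.0%). Both R141C arrays exceeded both wild-type arrays for 160 genes at day 0 (24.2%, against 15.2% of all genes) and for 242 at day 6 (36.6%, against 27.9%). For 19 genes (2.87%, against 4.91% of all genes) the groups did not overlap at either day and lay in opposite directions.

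The level of the chromosome was also compared as 1 value per array, the median over its genes of the log2 signal minus the mean of the gene's day, relative to the other autosomes. At day 0 it was -0.077 and -0.070 in wild type and 0.23 and -0.067 in R141C. At day 6 it was -0.06 and -0.10 in wild type and 0.27 and -0.09 in R141C. At day 0 R141C replicate 2 lay above wild type by less than the difference between the wild-type arrays, and at day 6 the genotypes overlapped. Both high values were those of R141C replicate 1. The mean was 0.09 in R141C and -0.08 in wild type, a difference of 0.16, given as a description. Without both R141C replicate 1 arrays the difference was -0.01.

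Dkk1, a secreted inhibitor of Wnt signalling (30621424 to 30621483), had the smallest p among the 661 genes for a higher signal in R141C at day 0. It gave -3.56 and -4.62 in wild type and -1.24 and -2.07 in R141C, a log2 difference of 2.44 (SE 0.39, limma adjusted p = 0.781). The -4.62 was dim, below the median of -4.54 for probes above background on 7 arrays. Fgf8, a growth factor of the primitive streak and of the marker list for it, gave -1.72 and -0.98 against 1.12 and 1.48, a difference of 2.65 (SE 0.47, limma adjusted p = 0.956). The groups did not overlap for either gene, and neither passed. The summed primitive streak markers at day 0, which include Fgf8, were 9.80 and 7.82 in wild type and 26.8 and 50.8 in R141C. Ssh3, a slingshot phosphatase of cofilin, differed by 0.88 (SE 0.20, limma adjusted p = 0.998).

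In the other direction at day 0, the predicted gene Gm6252 gave 5.50 and 5.36 in wild type and 4.59 and 4.14 in R141C, a log2 difference of -1.06 (SE 0.21). Plce1, a phospholipase C, differed by -1.21 (SE 0.48), and 1700019N19Rik by -0.51 (SE 0.17). None of the 3 was called (limma adjusted p = 0.998 for each).

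At day 6, Sfrp5, a secreted Wnt antagonist (42272509 to 42272568), gave 4.07 and 4.15 in wild type and -0.38 and 1.76 in R141C. It was the gene with the smallest p at that day, with a log2 difference of -3.42 (SE 0.60, limma adjusted p = 0.265). Prkg1, the cGMP-dependent protein kinase, gave -0.57 and -0.12 against -2.72 and -1.91, and Foxd4, a forkhead factor, -2.22 and -2.53 against -3.47 and -3.45. For all 3 the R141C arrays were below both wild-type arrays. Higher in R141C were Sgms1, a sphingomyelin synthase, by 1.13 (SE 0.29), Cst6, a cystatin, by 0.86 (SE 0.18), and the transcript AW492981 by 0.81 (SE 0.21), with limma adjusted p of 0.486, 0.352 and 0.486.

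The highest single shifts on R141C day 6 replicate 1 came from 8 genes of different kinds. As3mt, arsenite methyltransferase, was at 0.86 on that array and between -2.03 and -1.57 on the other 3, a shift of 2.60. Cd274, an immune checkpoint ligand (29462363 to 29462422), was at 0.31 against -2.24, -2.54 and -1.68, a shift of 2.38, and at day 0 it gave -2.02 and -2.24 in wild type and -0.23 and -0.30 in R141C. Shifts of 2.37 for the odorant receptor Olfr1505, 2.28 for the sperm channel protein Catsperz, 2.13 for the blood-cell kindlin Fermt3, 1.97 for the melanocyte antigen Mlana, 1.91 for AK082436 and 1.80 for the exchange factor Rasgrp2 followed. At day 0 the shifts of these 8 genes on R141C replicate 1 lay between -0.0017 and 1.21.

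Against the direction of the chromosome, Sfrp5 had a shift of -3.80 on R141C day 6 replicate 1, Slit1, an axon guidance ligand, -2.10, Prkg1 -1.94 and Acta2 -1.89. Acta2 (34316060 to 34316119) gave 5.40 and 6.37 in wild type and 4.06 and 5.80 in R141C at day 6. The heart muscle markers were lowest on the same array, as given above, and their part in these 4 values was not tested.

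**Figure D5:**
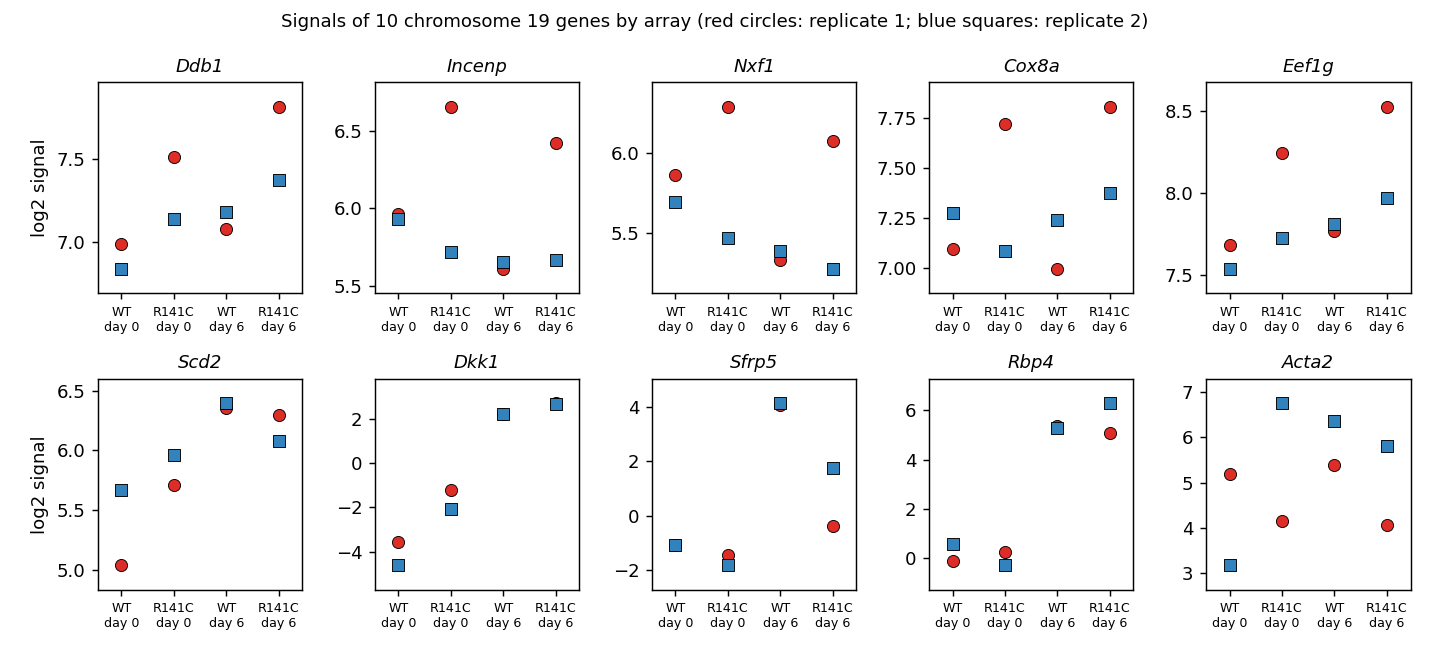
Log2 signals (vertical axes, 0 is the 75th percentile of each array) of 10 chromosome 19 genes in the 4 groups (horizontal axes). Red circles are replicate 1 and blue squares replicate 2. For the 5 genes in the upper row the R141C replicate 1 arrays are the brightest of each day, while Dkk1, Sfrp5 and Rbp4 rose between the days.

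Differentiation changed chromosome 19 genes in both directions. In wild type, 131 of the 661 genes were called between day 6 and day 0 in limma (19.8%, against 24.2% of all genes), with 74 higher (11.2%, against 12.2%) and 57 lower (8.62%, against 12.0%) at day 6. In R141C, 95 were called (14.4%, against 16.2% of all genes), 48 higher (7.26%, against 8.25%) and 47 lower (7.11%, against 7.94%). Of these, 72 were called in both genotypes, all in the same direction, which is 54.96% of the wild-type calls and 75.8% of the R141C calls. Over all genes these shares were 54.2% and 80.9%. The R141C count fell when R141C replicate 1 of day 0, of day 6 or of both days was left out. With both left out, which leaves 1 R141C array a day, the wild-type count rose. The wild-type count was 53 without replicate 1 and 45 without replicate 2 of wild type day 6, and without those arrays the R141C count was 59 and 61. No gene was called for a different genotype effect at day 6 than at day 0 (0 of 661, against 0% of all genes), and 27 had an unadjusted p under 0.05 (4.08%, against 5.08%).

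The 6 named genes with the largest rises in wild type were Dkk1, Pgm5, Sfrp5, Rbp4, Ppp1r3c and Vldlr. Dkk1 gave 2.21 and 2.20 in wild type and 2.72 and 2.66 in R141C at day 6, against negative values on all 4 day 0 arrays, a rise of 6.30 in wild type (SE 0.39, limma adjusted p = 0.00023) and of 4.34 in R141C (SE 0.39, limma adjusted p = 0.0011). Rbp4, the retinol carrier of the blood (38191120 to 38191179), went from -0.10 and 0.57 to 5.38 and 5.28 in wild type and from 0.24 and -0.28 to 5.08 and 6.29 in R141C. It rose by 5.10 (SE 0.42) and 5.71 (SE 0.42), with limma adjusted p of 0.00052 and 0.00070. Sfrp5 rose by 5.17 in wild type (SE 0.60, limma adjusted p = 0.0017) and by 2.31 in R141C (SE 0.60, limma adjusted p = 0.041). The difference between these 2 rises was not called.

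Cyp26a1, which degrades retinoic acid, rose by 4.66 and 3.35 in wild type and R141C, Vldlr, a lipoprotein receptor, by 4.71 and 5.16, and Ppp1r3c, a glycogen-targeting subunit of protein phosphatase 1, by 4.82 and 3.38. Pgm5, a phosphoglucomutase-related protein of adhesion sites, rose by 5.27 and 3.03, Fgf8 by 3.83 and 2.63, Hhex, a homeobox factor, by 1.47 and 2.21, and Fermt3 by 3.00 and 4.0. All of these were called in both genotypes. In wild type, the rises of Dkk1 and Pgm5 started from dim day 0 signals. Of the 16 developmental regulators, 8 rose and 2 fell in wild type (62.5% called, against 24.2% of all genes), and 6 rose and 2 fell in R141C (50%, against 16.2%), with median differences of 0.99 and 0.84. That list was drawn up with earlier results of these data known, and its share was not tested. The sum of 6 blood markers went from at most 1.16 at day 0 to between 171 and 560 at day 6, and the part of blood cells in the rise of Fermt3 was not tested.

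Among the falls, Gng3, a G protein gamma subunit (8912410 to 8912469), went from 3.83 and 4.17 to 1.31 and 0.63 in wild type and from 3.99 and 4.09 to -0.20 and 0.27 in R141C. It fell by 3.03 and 4.01 on the log2 scale (SE 0.29 for each, limma adjusted p = 0.00086 and 0.00064). Gm6252 fell by 3.37 and 2.08, Ms4a10, a membrane-spanning protein, by 3.64 and 3.85, Cpt1a, which brings fatty acids into mitochondria, by 3.64 and 2.48, and the cytokine gene Il33 by 2.63 and 3.45, all called in both genotypes. Mlana fell by 3.49 and Rasgrp2 by 2.93 in wild type, and in R141C their differences of -2.28 and -1.80 were not called (limma adjusted p = 0.088 and 0.071). Anxa1, an annexin, fell by 3.53 in R141C, and its difference of -1.56 in wild type was not called (limma adjusted p = 0.15). Rin1, a Ras effector, fell by 3.18 in R141C, and its difference of -0.91 in wild type was not called (limma adjusted p = 0.22). Ins1, an insulin gene, fell by 2.22 and 2.82.

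The genes called between the days are given for the other role lists, against 24.2% of all genes in wild type and 16.2% in R141C. The lists were drawn up with earlier results of these data known, so no list is called particular from its count. No difference between the lists was tested. Of the 23 genes for replication, repair and mitosis, 2 rose and 0 fell in each genotype, with a median difference of -0.03 in wild type and -0.01 in R141C. Of 33 genes for transcription and RNA processing, 1 rose and 1 fell in wild type, and 1 rose in R141C, with medians of -0.31 and -0.25, below those of all genes. Of 24 mitochondrial genes, 1 fell in wild type and 0 were called in R141C, with medians of -0.14 and -0.11. Of 20 genes for translation, protein turnover and membrane traffic, 1 rose and 1 fell in wild type and 0 were called in R141C, with medians of -0.07 and -0.11. These 4 lists had at most 10% of their genes called in either genotype. Of 35 signalling genes, 7 rose and 5 fell in wild type (34.3% called), and 4 rose and 6 fell in R141C (28.6%), with medians of 0.12 and 0.13. Of 22 genes for lipid and amino acid metabolism, 7 rose and 3 fell in wild type (45.5%), and 1 rose and 3 fell in R141C (18.2%), with medians of -0.21 and -0.12. Over all 661 genes the median difference was -0.02 in wild type and 0.05 in R141C, where all genes had -0.06 and 0.0060.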

How the data were processed

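RNA from 8 cultures was labelled with Cy3 and hybridized to 8 single-colour Agilent arrays on 1 slide. Scanner output came from Agilent Feature Extraction, version 11.5.1.1 per the file headers and 10.5.1.1 per the submitters' processing notes. The authors deposited the processed signal, an intensity with background subtracted and not normalized between arrays, beside mean spot and local background intensities. The deposited spot flags (other) are 0 or 1. The deposited series matrix of log2 values served as an alternative, and its scale, centring and filter are not stated.

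Outlier spots were left out, spots of a probe averaged, and log2 signals shifted to a 75th percentile of 0. Probe positions are on mm9, per the file headers. Names came from RefSeq's table for GRCm38.p6, which renamed 41 of the 661 genes. The dimmest gene that passed had a mean log2 signal of -4.90, and the probes above background on 7 arrays had a median of -4.54.

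Comparisons used limma 3.58.1 in R 4.3.3, which estimated the means of 4 groups in 1 model with 4 residual degrees of freedom and 3.19 prior ones, two-sided tests and Benjamini-Hochberg adjustment over 21201 genes. The number of arrays limits the precision. Scripts were tested on simulated data. Figures used Python 3.11.15 and matplotlib 3.10.9.

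Members, lists, tests and the naming rule were chosen with earlier results of these data known. The rule named the 4 brightest genes of each role list, the largest rises and falls called in each comparison (6 each, or 3 with the smallest p where none was called), the 8 highest and 4 lowest shifts on the array with the highest chromosome shift, and the 5 brightest genes of its highest bin. A gene that the rule named is not reported here. The alternatives included other normalizations, background corrections, filters, bins, a replicate block and leaving out arrays.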

Additional observations from a re-analysis of the deposited data

Results flagged for a closer look

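Of the 66 genes the naming rule gave, 5 had R141C arrays that lay above wild type at 1 of the days and below it at the other, without overlap. The same was true of 19 of the 661 genes (2.87%) and of 4.91% of all 21201 genes. The 5 were picked from the 66 by direction, but part of the 66 had been named for small p. Gm6252, Cst6 and 1700019N19Rik were named for the smallest p of the difference between the days itself. The 5 of 66 can thus not be set against these shares. In limma's test of that difference none of the 5 was called (smallest adjusted p over the 661 genes = 0.938). The genotype effect at day 6 minus that at day 0 was 0.68 for 1700019N19Rik, 1.04 for Cst6, 1.29 for Gm6252, -2.24 for Pgm5 and -0.67 for Scd2. At day 0 Pgm5 gave -4.10 and -6.11 in wild type and -3.86 and -3.68 in R141C, and at day 6 it gave 0.05 and 0.28 against -0.98 and -0.50. The -6.11 was below -4.90, the mean log2 signal of the dimmest of the 661 genes, so the difference for Pgm5 rests on a dim value. Scd2 gave 5.04 and 5.67 against 5.71 and 5.96 at day 0, and 6.36 and 6.40 against 6.30 and 6.08 at day 6.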

How the results depend on the processing

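Among values recomputed under alternatives, 375 stayed within the threshold or spread used, 10 moved and 1 reversed. The spread was pooled between replicates, at 0.22 for shifts and 41.7 percentage points for shares of bins. It contains the difference between the R141C replicates, so it is wide and the tally is coarse. Wild type day 0 replicate 1, which went from -0.10 to 0.02 without R141C day 0 replicate 1, counted as staying. The shift of R141C day 0 replicate 1 stayed between 0.24 and 0.41 and that of R141C day 6 replicate 1 between 0.24 and 0.45. Replicate 1 minus replicate 2 in R141C at day 6 was 0.12 with no filter on dim probes, against 0.34. The difference in level between the genotypes was -0.011 without both R141C replicate 1 arrays (an alternative chosen after seeing the data, which leaves 1 R141C array a day), and 0.07 to 0.25 with single arrays left out. With only the arrays compared, calls between the days in wild type rose from 19.8% to 28.4% of the chromosome's genes tested (188 genes). In R141C, calls between the days were 14.4% of the genes tested. They were 8.77% (58 genes) with only the arrays compared, 8.76% with no filter on dim probes (91 of 1039 genes), 4.52% (30 genes) without both R141C replicate 1 arrays, and 7.11% to 16.3% with single arrays left out. In wild type they were 19.8%, with 23.8% under no filter on dim probes (247 of 1039 genes) and 6.61% to 21.3% with single arrays left out. R141C against wild type at day 6 gave 0% to 0.303% with single arrays left out, the latter (2 genes) without R141C day 6 replicate 2. The causes were not tested. The number of arrays and the background limit what can be seen of dim genes.

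The labels do not say whether equal replicate numbers link cultures, and the samples were not treated as paired. Deviations of same-numbered arrays from their group means correlated across genes at 0.43 between the R141C groups of the 2 days (0.42 without chromosomes 1, 8 and 19), at -0.16 between the genotypes at day 0 and at -0.07 to 0.11 in the other 4 pairs of groups. With the replicate block, calls between the days were 21.0% in wild type (139 genes) and 15.3% in R141C (101 genes), and 0 in the other comparisons. The crossed pairing at day 0, chosen after seeing the data, gave 0 calls.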
